A study of Drosophila melanogaster with 6 samples.

Results

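Transcripts of 37 genes that build ribosomes, here called ribosome biogenesis factors, were followed in *Drosophila* wing discs in which the nucleoporin gene *Nup98-96* was targeted by RNAi. They were taken by symbol from a list of nucleolar and pre-ribosome genes, and each was matched to a FlyBase gene of the count table. All 37 were found among its 17559 genes, and all 37 were among the 7942 genes that were tested. From general knowledge of their homologs they were placed in 5 groups, which are 10 factors of small nucleolar ribonucleoproteins (snoRNPs), 8 factors of the small subunit, 12 factors of the large subunit, 2 factors of rRNA gene transcription and 5 other nucleolar proteins.

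A group of 3 libraries carried UAS-Nup98 RNAi HM05048, and 3 control libraries carried UAS-white RNAi JF01540, directed at an eye pigment gene. Larvae of both groups also held UAS-P35/+, ap-Gal4 with UAS-GFP/+, and tub-Gal80TS, so that the baculovirus caspase inhibitor P35 was expressed in the controls too. Gal4 was kept off at 18°C for 4 days and was then active at 28°C for 72 h, until wandering L3 larvae were dissected. *ap-Gal4* drives expression in the dorsal compartment of the disc, so that each library, made from polyA RNA of 40 pooled discs, also held ventral cells without the RNAi. The labels do not say that the pools came from separate crosses, and p-values measure the spread between pools.

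Ribosomes are assembled in the nucleolus, where RNA polymerase I transcribes the precursor of the rRNAs. Box C/D snoRNPs guide methylation of rRNA ribose and box H/ACA snoRNPs guide the conversion of its uridines to pseudouridine. Separate sets of factors then fold, cut and proofread the pre-ribosomal particles of the small and the large subunit, which leave the nucleus through the nuclear pore and shed their last factors in the cytoplasm. Imaginal discs grow fast during larval life and make ribosomes at a high rate, and many of these genes are known targets of Myc.

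The libraries held between 70342787 and 110330112 counts. Values are given as CPM, counts scaled by the size of each library and its TMM factor, in the order of replicates 1, 2 and 3. The targeted gene *Nup98-96* was at 331, 335 and 316 CPM in *white* RNAi and at 317, 302 and 314 CPM in *Nup98-96* RNAi, with ranges that overlapped, so that in whole discs it did not separate the groups and gave no check of their labels (log2 fold change -0.07, adjusted p = 0.118 from edgeR). The control target *w* was lower in the *white* RNAi libraries, at 485, 573 and 573 CPM against 1064, 1071 and 861 CPM (log2 fold change 0.88, adjusted p = 0.000326). *white* RNAi replicate 1 stood apart by its fat body transcripts, whose 8 markers summed to 3699 CPM against 23.3 to 92.3 CPM in the other 5 libraries. The sum of 10 wing disc markers was 3179 to 3401 CPM in *white* RNAi and 2488 to 2551 CPM in *Nup98-96* RNAi, with 5 of the 10 called lower. The sum of 5 markers of the adepithelial myoblasts that lie under the disc was 237 to 265 CPM in *white* RNAi and 168 to 177 CPM in *Nup98-96* RNAi, with 3 of the 5 called lower. Of 5 tracheal markers 2 were called higher and 3 lower, and *elav*, the only tested marker of 4 for neurons and glia, was called higher. The sums of the 5 hemocyte and the 6 salivary gland markers overlapped between the groups, at 22.8 to 31.0 against 16.5 to 32.1 CPM and 7.63 to 18.2 against 2.51 to 15.3 CPM. Of the 3 tested hemocyte markers *srp* was called lower, from 3.11 ± 1.38 to 0.643 ± 0.250 CPM (SD, n = 3 each). *Hml* and *Pxn* overlapped between the groups. *NimC1* and *He*, which were not tested, were lower without overlap, from 0.877 to 0.238 and from 0.880 to 0.264 CPM. None of the 4 tested salivary gland markers was called. Of all tested genes 15.3% were called higher and 11.2% lower, by the rule given in the next paragraph.

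Most of the ribosome biogenesis factors had more transcript in *Nup98-96* RNAi discs. A gene was called where the adjusted p of edgeR's quasi-likelihood test over all tested genes was under 0.05 and the log2 fold change was at least 0.5 in size. By this rule 12 of the 37 factors were called higher, where 15.3% of all tested genes were, and 0 were called lower, where 11.2% of all tested genes were. With the adjusted p alone, 35 of the 37 were positive against 33.3% of all tested genes, and 0 were negative against 32.5%. In 35 of the 37 all 3 *Nup98-96* RNAi libraries lay above all 3 *white* RNAi libraries, against 36.6% of all tested genes, and in 0 did they all lie below, against 36.2%. Their median log2 fold change was 0.42 (quartiles 0.30 and 0.54), beside a median of 0.0014 over all tested genes (quartiles -0.24 and 0.29), and 28 of the 37 lay above that upper quartile. The factors summed to 4400 ± 166 CPM in *white* RNAi and 6270 ± 83.6 CPM in *Nup98-96* RNAi (SD, n = 3 each).

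Most of these differences were below the minimum fold change. The 95% interval of the log2 fold change lay wholly above 0.5 in 6 of the 37 factors, and of the 25 that were not called 16 had an interval wholly between 0 and 0.5. In bulk RNA of whole discs, a change in the number of cells of a type and a change in RNA per cell cannot be told apart. The wing disc and myoblast marker sums were lower in *Nup98-96* RNAi, while the sum of the 37 factors was higher. Whether the make-up of the discs had a part in these differences was not tested. Without *white* RNAi replicate 1, the library with fat body transcripts, 15 of the 37 were called higher, with *Nop56*, *mbm* and *CG1542* added to the other 12. Of the 7833 genes tested without that library 1290 were called higher.

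**Figure D1:**
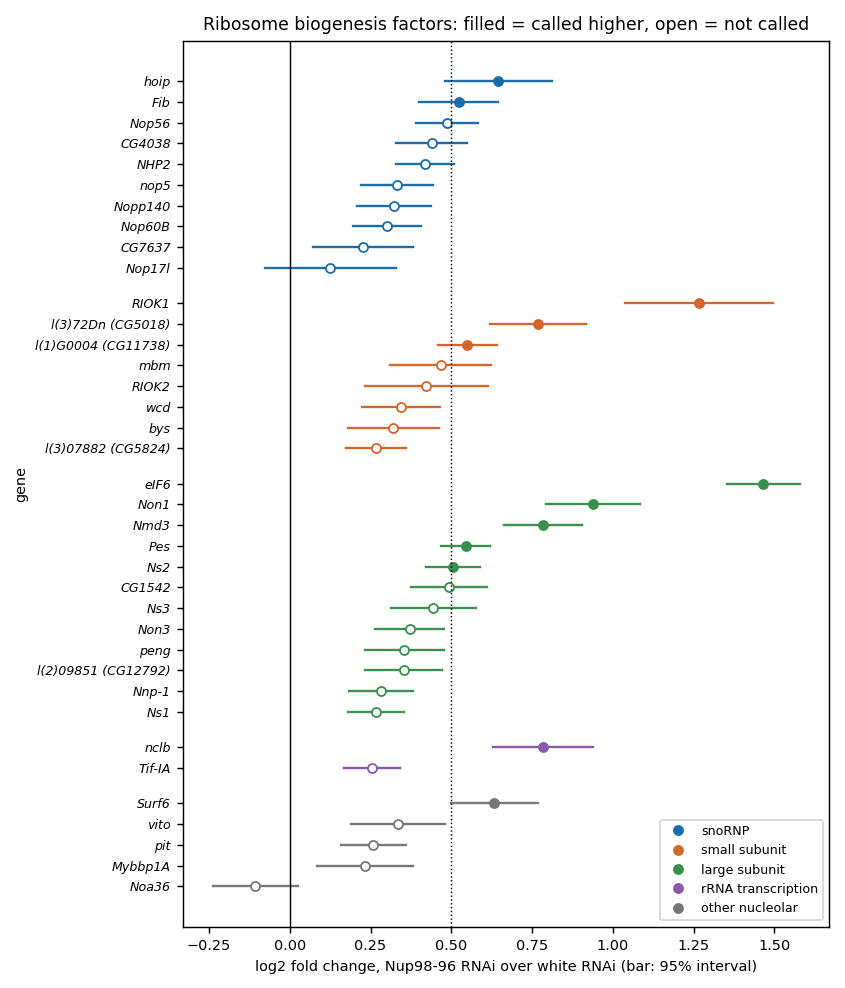
Log2 fold change of each of the 37 factors, *Nup98-96* RNAi over *white* RNAi, by group and ordered by size within each group (points, 3 libraries against 3; bars, 95% interval; filled points, called higher; dotted line, the minimum of 0.5). All points but that of *Noa36* lie to the right of 0, and *eIF6* at 1.47 and *RIOK1* at 1.27 lie farthest right.

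Among the snoRNP factors, 2 of 10 were called higher, a share near the 15.3% of all tested genes. A positive difference with an adjusted p under 0.05 was found in 9 of the 10, beside 33.3% of all tested genes. Both factors called higher were core proteins of box C/D particles. *hoip* (FBgn0015393, chr2L:9699791-9700459 in BDGP6), the homolog of the RNA-binding protein that nucleates box C/D particles and also joins the U4 snRNP of the spliceosome, was at 107, 103 and 90.2 CPM in *white* RNAi and 162, 149.6 and 159 CPM in *Nup98-96* RNAi. Every *Nup98-96* RNAi library exceeded every control, and *hoip* rose 1.56-fold (log2 fold change 0.65, 95% interval 0.48 to 0.81, adjusted p = 0.000220). *Fib* (FBgn0003062, chr2R:23072909-23074725), fibrillarin, the methyltransferase of the same particles, was at 182, 174 and 162 CPM in *white* RNAi and 254, 240.0 and 250.3 CPM in *Nup98-96* RNAi. Its groups did not overlap either, and it rose 1.44-fold (log2 fold change 0.52, interval 0.40 to 0.64, adjusted p = 0.000143). Without *white* RNAi replicate 3, the lowest of the controls, its log2 fold change was 0.48 and the call was lost.

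The other core proteins of box C/D particles, *Nop56* and *nop5*, had log2 fold changes of 0.49 (interval 0.39 to 0.58) and 0.33 (0.22 to 0.44), from 229 ± 8.27 to 321 ± 9.14 CPM and from 297 ± 14.9 to 373 ± 11.5 CPM (SD, n = 3 each). They fell short of the minimum fold change with adjusted p of 6.72e-05 and 0.000745. The 4 core proteins of box C/D particles thus spanned 0.33 to 0.65, with a median of 0.50.

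None of the 4 core proteins of box H/ACA particles was called, beside 15.3% of all tested genes called higher and 11.2% lower. Their median log2 fold change was 0.36. The pseudouridine synthase *Nop60B*, the dyskerin homolog, went from 419 ± 17.8 to 517 ± 19.1 CPM (log2 fold change 0.30, interval 0.20 to 0.41). Its partners *NHP2*, *CG4038* (the Gar1 homolog) and *CG7637* (the Nop10 homolog) had log2 fold changes of 0.42 (0.33 to 0.51), 0.44 (0.33 to 0.55) and 0.23 (0.07 to 0.38). All 4 had a positive difference with an adjusted p under 0.05, beside 33.3% of all tested genes. Their groups did not overlap, as in 36.6% of all tested genes in this direction. The highest adjusted p was 0.0193, for *CG7637*. That of *CG7637* was above 0.05 without *white* RNAi replicate 2 (0.104) or 3 (0.0515), without *Nup98-96* RNAi replicate 1 (0.0710) or 2 (0.0576), and with no filter on low counts (0.0513), while its log2 fold change was positive in each. The interval of *CG4038* overlapped those of all 4 box C/D proteins, and a difference between the particle types was not tested.

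Proteins that help snoRNPs form were not called. *Nopp140*, a nucleolar chaperone of snoRNPs, went from 324 ± 16.3 to 405 ± 14.6 CPM (log2 fold change 0.32, interval 0.21 to 0.44). *Nop17l* (FBgn0033224, chr2R:7800785-7806385), whose homologs assemble box C/D particles with the chaperone Hsp90, was at 164, 174 and 177 CPM in *white* RNAi and 200.4, 200.1 and 162 CPM in *Nup98-96* RNAi. Here the groups overlapped, because *Nup98-96* RNAi replicate 3 lay below all 3 controls while the other two lay above them (log2 fold change 0.13, interval -0.08 to 0.33, adjusted p = 0.230). Without that library its log2 fold change was 0.22 with an adjusted p of 0.00993, beside adjusted p of 0.229 to 0.517 when any other single library was left out.

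Of the 8 small-subunit factors 3 were called higher, beside 15.3% of all tested genes. All 8 had a positive difference with an adjusted p under 0.05, beside 33.3% of all tested genes. *RIOK1* (FBgn0036187, chr3L:11646234-11648474), an atypical kinase that acts on late small-subunit precursors in the cytoplasm, was at 26.1, 23.3 and 19.7 CPM in *white* RNAi and 56.2, 55.9 and 54.1 CPM in *Nup98-96* RNAi. The highest control lay far below the lowest *Nup98-96* RNAi library, and *RIOK1* rose 2.40-fold (log2 fold change 1.27, interval 1.04 to 1.495, adjusted p = 4.47e-05). Its relative *RIOK2*, a kinase of the same stage, was not called, at 20.5 ± 1.72 and 27.5 ± 2.11 CPM (log2 fold change 0.42, interval 0.23 to 0.61). The intervals of the 2 kinases did not overlap. However, *RIOK2* shared 48.5% of its exon bases with an antisense RNA gene, and counting ignored the strand, so that its value is uncertain.

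The second small-subunit factor, *l(3)72Dn* (FBgn0263605, chr3L:16226126-16228737), is the homolog of Utp4, a protein of the early processome that binds the rRNA precursor. It was at 23.6, 23.0 and 20.3 CPM in *white* RNAi and 39.4, 37.7 and 36.8 CPM in *Nup98-96* RNAi, without overlap, and rose 1.70-fold (log2 fold change 0.77, interval 0.62 to 0.92, adjusted p = 6.24e-05). The third, *l(1)G0004* (FBgn0027334, chrX:20391447-20392401), is the homolog of Pno1, an RNA-binding protein of small-subunit precursors. It was at 23.8, 23.0 and 22.8 CPM in *white* RNAi and 34.8, 32.9 and 34.2 CPM in *Nup98-96* RNAi. The 3 controls lay close together and all were below the other group, a rise of 1.46-fold (log2 fold change 0.55, interval 0.46 to 0.64, adjusted p = 3.00e-05).

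The remaining small-subunit factors were not called. The nucleolar protein gene *mbm* had a log2 fold change of 0.47 (0.31 to 0.62), the Utp18 homolog *wcd* of 0.34 (0.22 to 0.46) and *bys*, bystin, of 0.32 (0.18 to 0.46). The lowest of the group was *CG5824*, given here by its RefSeq locus name, which the plot of log2 fold changes sets beside its lethal gene symbol (FBgn0010926, chr3R:17535533-17539963), the Nop14 homolog of the processome, at 73.6, 71.1 and 68.5 CPM in *white* RNAi and 87.7, 85.7 and 83.3 CPM in *Nup98-96* RNAi. Its groups did not overlap, but the difference stayed under the minimum fold change (log2 fold change 0.27, interval 0.17 to 0.36, adjusted p = 0.000891).

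Large-subunit factors held the highest value of the 37. Of the 12, 5 were called higher, beside 15.3% of all tested genes. All 12 had a positive difference with an adjusted p under 0.05, beside 33.3% of all tested genes. *eIF6* (FBgn0034915, chr2R:23849246-23850301), which binds the large subunit and keeps it from joining the small subunit until it is released in the cytoplasm, was at 87.0, 86.7 and 81.5 CPM in *white* RNAi and 246, 234 and 225 CPM in *Nup98-96* RNAi. The spread within each group was small beside the gap between them, and *eIF6* rose 2.76-fold (log2 fold change 1.47, interval 1.35 to 1.58, adjusted p = 1.30e-06). *Non1* (FBgn0028473, chr2R:9396265-9398734), a nucleolar GTPase homologous to yeast Nog1 that stays on the large subunit through export, was at 627, 546 and 573 CPM in *white* RNAi and 1073, 1185 and 1089.9 CPM in *Nup98-96* RNAi. It rose 1.92-fold with no overlap between the groups (log2 fold change 0.94, interval 0.79 to 1.09, adjusted p = 2.34e-05).

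*Nmd3* and *Pes*, genes that the study also knocked down by RNAi in discs, were both called higher in these libraries. *Nmd3* (FBgn0023542, chrX:2182818-2184668), the adaptor that links the large subunit to the exportin Crm1, was at 44.9, 46.4 and 41.5 CPM in *white* RNAi and 79.0, 74.97 and 74.7 CPM in *Nup98-96* RNAi. All 3 *Nup98-96* RNAi values were above the controls, and *Nmd3* rose 1.72-fold (log2 fold change 0.78, interval 0.66 to 0.90, adjusted p = 2.23e-05). *Pes* (FBgn0032138, chr2L:9708921-9711271), pescadillo, which acts in early nucleolar processing of large-subunit rRNA and is annotated as *CG4364*, was at 298, 284 and 289 CPM in *white* RNAi and 423, 429 and 417 CPM in *Nup98-96* RNAi. The spread within each group was narrow and the groups did not overlap, with a rise of 1.46-fold (log2 fold change 0.54, interval 0.47 to 0.62, adjusted p = 1.45e-05).

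The 3 nucleostemin family GTPases lay at or below the threshold. *Ns2* (FBgn0034243, chr2R:17565779-17568456), the Nog2 homolog, was at 122, 122 and 118 CPM in *white* RNAi and 175, 171 and 167 CPM in *Nup98-96* RNAi, with no overlap. It was the called factor nearest the threshold, at 1.42-fold (log2 fold change 0.51, interval 0.42 to 0.59, adjusted p = 2.88e-05), and its call was lost without *white* RNAi replicate 2 or 3 or *Nup98-96* RNAi replicate 1 (log2 fold change 0.50, 0.49 and 0.49). *Ns3*, the homolog of the cytoplasmic GTPase Lsg1 that releases Nmd3, had a log2 fold change of 0.44 (0.31 to 0.58) and was not called. *Ns1* (FBgn0038473, chr3R:17070523-17072675), nucleostemin itself, was the lowest large-subunit factor, at 105, 100.3 and 98.5 CPM in *white* RNAi and 125, 119.9 and 121 CPM in *Nup98-96* RNAi (log2 fold change 0.27, interval 0.18 to 0.35, adjusted p = 0.000658). Its groups did not overlap, and the intervals of *Ns1* and *Ns2* did not overlap each other either.

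Another 5 large-subunit factors were not called, with log2 fold changes from 0.28 to 0.49. The Ebp2 homolog *CG1542* lay just under the minimum, at 0.49 (0.38 to 0.61). It was called without *white* RNAi replicate 1, *white* RNAi replicate 2 or *Nup98-96* RNAi replicate 2. *Non3*, the Rpf2 homolog, was at 0.37 (0.27 to 0.48), the Puf-domain protein gene *peng* at 0.35 (0.23 to 0.48), the Grwd1 homolog *CG12792* (FBgn0022288, chr2R:5754517-5756327), also given by its RefSeq locus name, at 0.35 (0.23 to 0.47), and the Rrp1 homolog *Nnp-1* at 0.28 (0.18 to 0.38).

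Of the 2 factors of rRNA gene transcription 1 was called higher, beside 15.3% of all tested genes. *nclb* (FBgn0263510, chr2R:10875748-10877296), the homolog of Pwp1, which promotes transcription of the rRNA genes, was at 69.8, 64.5 and 60.2 CPM in *white* RNAi and 117, 113 and 105 CPM in *Nup98-96* RNAi. It rose 1.72-fold, and the groups were far apart compared with the spread within them (log2 fold change 0.78, interval 0.63 to 0.94, adjusted p = 6.65e-05). *Tif-IA* (FBgn0032988, chr2L:22249876-22258260), the initiation factor that recruits RNA polymerase I, was at 114, 118 and 117 CPM in *white* RNAi and 144, 136 and 137 CPM in *Nup98-96* RNAi. Its difference was smaller and not called, although the groups did not overlap (log2 fold change 0.25, interval 0.17 to 0.34, adjusted p = 0.000835).

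The other nucleolar proteins had 1 call among 5, a share near the 15.3% of all tested genes called higher. *Surf6* (FBgn0038746, chr3R:19903665-19904868), a nucleolar RNA-binding protein, was at 33.5, 35.5 and 30.8 CPM in *white* RNAi and 52.7, 50.6 and 51.5 CPM in *Nup98-96* RNAi. It rose 1.55-fold with separate groups (log2 fold change 0.63, interval 0.50 to 0.77, adjusted p = 9.56e-05). *vito*, the Nol12 homolog, the helicase gene *pit* and *Mybbp1A* had log2 fold changes of 0.34 (0.19 to 0.48), 0.26 (0.16 to 0.36) and 0.23 (0.09 to 0.38), and were not called. The adjusted p of *Mybbp1A* was 0.0137, and 0.0519 without *Nup98-96* RNAi replicate 1.

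*Noa36* (FBgn0026400, chr3R:28598059-28599288), a zinc finger protein of the nucleolus, was the exception in direction. It was at 31.0, 35.2 and 34.98 CPM in *white* RNAi and 31.8, 31.1 and 31.2 CPM in *Nup98-96* RNAi, and the groups overlapped because *white* RNAi replicate 1 lay lower than the other two controls (log2 fold change -0.11, interval -0.24 to 0.03, adjusted p = 0.130). Without that replicate, the one with fat body transcripts, its log2 fold change was -0.16 with an adjusted p of 0.0107.

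The snoRNP, small-subunit and large-subunit factors differed little in their typical change. The median log2 fold change was 0.37 for the 10 snoRNP factors (range 0.13 to 0.65), 0.45 for the 8 small-subunit factors (0.27 to 1.27) and 0.47 for the 12 large-subunit factors (0.27 to 1.47). The deviation of each gene from its mean in *white* RNAi was also taken on the log2 scale in each library. The median deviation of large-subunit factors was 0.51, 0.45 and 0.44 in the 3 *Nup98-96* RNAi libraries, that of small-subunit factors 0.50, 0.47 and 0.40, and that of snoRNP factors 0.40, 0.33 and 0.40. In the controls these medians lay between -0.11 and 0.09. The order of the small- and large-subunit medians turned without *white* RNAi replicate 1 (0.52 and 0.50) and was level to this precision without *Nup98-96* RNAi replicate 3 (0.48 for both), while the snoRNP median was the lowest of the 3 whichever library was left out. Differences between these groups of factors were not tested.

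**Figure D2:**
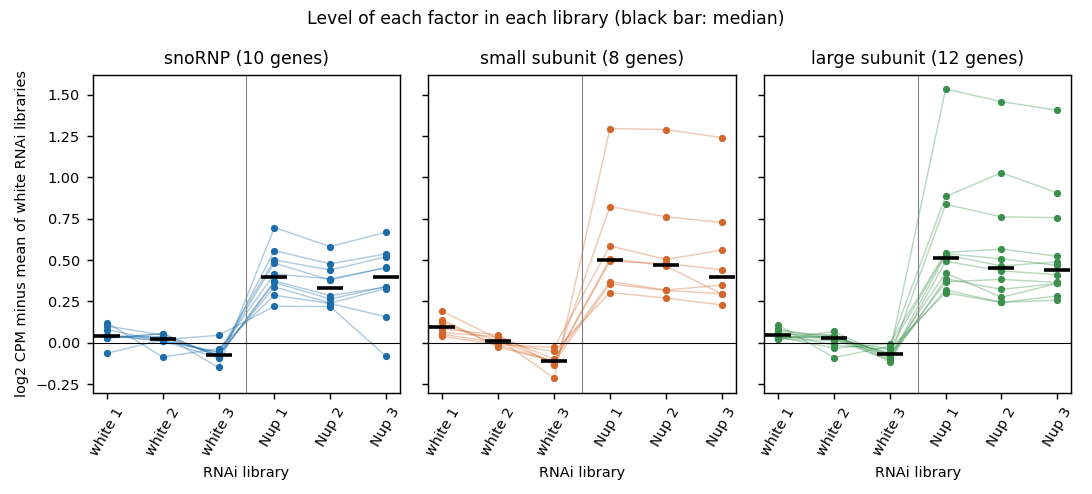
Log2 CPM of each snoRNP, small-subunit and large-subunit factor in each library, minus its mean in the 3 *white* RNAi libraries (points joined by gene; black bars, median of the group of factors). Medians lie at 0.33 to 0.51 in *Nup98-96* RNAi and between -0.11 and 0.09 in *white* RNAi, and a few genes, such as *eIF6*, *Non1* and *RIOK1*, lie well above the rest.

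Summed over its genes, each of the 3 groups of factors was higher in *Nup98-96* RNAi. Large-subunit factors went from 1724 ± 69.2 to 2788 ± 54.0 CPM in sum, of which *Non1* alone made 582 ± 41.2 and 1116 ± 60.3 CPM. The snoRNP factors went from 1889 ± 76.2 to 2441 ± 68.0 CPM and the small-subunit factors from 298 ± 19.9 to 420.1 ± 9.72 CPM (SD, n = 3 each). Ranges of the sums did not overlap between *white* RNAi and *Nup98-96* RNAi in any of the 3.

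Levels per length of exon (RPKM, the mean CPM per kilobase) allowed the genes to be set against each other. In *white* RNAi discs 33 of the 37 lay above the median level of all tested genes. The 4 core proteins of box C/D particles were near one another, *hoip* at 165, *nop5* at 164, *Nop56* at 131 and *Fib* at 131 RPKM, and those of box H/ACA particles ranged from 66.9 RPKM for *CG7637* to 123 RPKM for *Nop60B*. *CG7637* shared 31.6% of its exon bases with a gene on the other strand, so that its level is uncertain. Among large-subunit factors *Non1* was the highest of all 37 at 256 RPKM and *Nmd3* the lowest of its group at 24.7 RPKM. Small-subunit factors ranged from 9.60 RPKM for *l(3)72Dn* and 10.9 RPKM for *RIOK1* to 34.4 RPKM for *bys*, which overlapped the low end of the large-subunit factors.

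The size of the change did not follow the level. Across the 37 genes, which share the same 6 libraries, Spearman's correlation between the control RPKM and the log2 fold change was 0.036, and that between exon length and the log2 fold change was -0.29. *RIOK1* and *Non1*, near the lowest and at the highest level of the list, were both among its 3 largest log2 fold changes. In *Nup98-96* RNAi *eIF6* reached 223 RPKM from 80.6, above the level of *Fib* at 188 and *Nop56* at 184 RPKM, which it lay below in the controls.

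**Figure D3:**
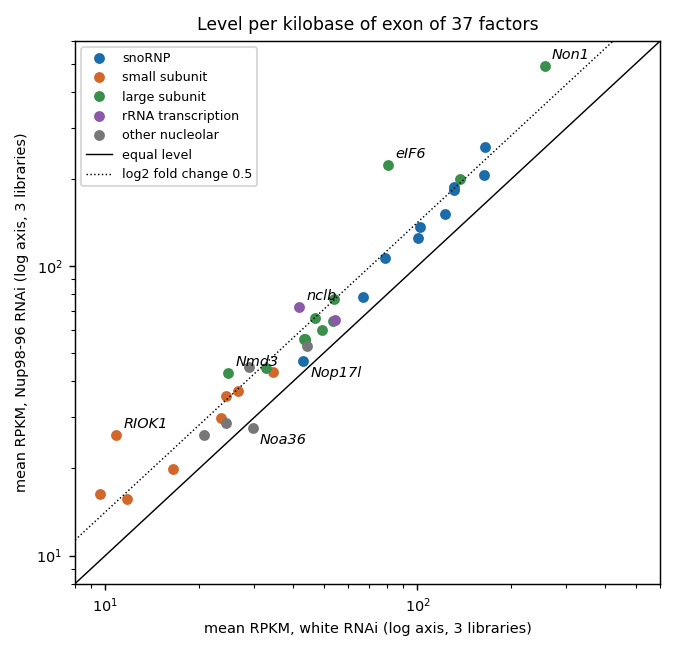
Mean RPKM of each of the 37 factors in *white* RNAi (x axis, log scale) and *Nup98-96* RNAi (y axis, log scale; 3 libraries each; solid line, equal level; dotted line, log2 fold change of 0.5). *Non1* is the highest at 256 and 490.4 RPKM, *eIF6* lies farthest above the dotted line, and *Noa36* lies below the solid line.

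The factors also moved together between replicates of the same group. *white* RNAi replicate 3 had the lowest control value in 31 of the 37 factors, where 32.7% of all tested genes had theirs in that library. *Nup98-96* RNAi replicate 1 had the highest value of its group in 31 of the 37, against 33% of all tested genes. The median deviation of the 37 was 0.05, 0.02 and -0.08 in *white* RNAi and 0.42, 0.39 and 0.37 in *Nup98-96* RNAi, while that of all tested genes was between -0.01 and 0.01 in every library. *white* RNAi replicate 3 was also the deepest library and *Nup98-96* RNAi replicate 1 the shallowest, and whether depth had a part in this was not tested.

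Counting ignored the strand, so that reads from exons shared with a gene on the other strand cannot be assigned to either. In the BDGP6 annotation 12 of the 37 factors shared exon bases with such a gene. Of these 12, 3 were called higher, against 9 of the 25 factors without an overlap and 15.3% of all tested genes. *Nmd3* shared 99 of its 1791 exon bases with *pn*, which was also called higher but was at 3.01 and 5.11 CPM, a small part of the 44.3 ± 2.47 and 76.2 ± 2.42 CPM of *Nmd3*. *Ns2* shared 74 bases with *CG14480* (log2 fold change -0.16) and *l(1)G0004* 68 bases with *Syx16* (0.21), neither of which was called. *Nop17l* shared 260 of its 3991 exon bases with the DNA polymerase zeta gene *PolZ1*, which was called higher with a log2 fold change of 1.40, from 44.4 to 117 CPM.

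Overlaps took the largest shares of exon length in 3 factors that were not called. *RIOK2* shared 48.5% of its exon bases with an antisense RNA gene and *CG5824* 29.3% with *P5cr-2*, and neither partner was tested. *CG7637* shared 31.6% with *CG12935*, which was not called. On its own strand, *Surf6* overlapped exons of *ClpX* and *Nop60B* overlapped snoRNA genes. The values of these genes are uncertain to the extent of the shared bases.

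Genes of the same pathway outside the 37 were set beside them. Of 7 genes of RNA polymerase I and its initiation complex 2 were called higher and 0 lower, beside 15.3% and 11.2% of all tested genes. All 7 had a positive difference with an adjusted p under 0.05, beside 33.3% of all tested genes, and the median log2 fold change was 0.43. Those called were *Udd*, a subunit of the complex that selects rRNA gene promoters, from 19.1 ± 2.84 to 29.8 ± 1.31 CPM (log2 fold change 0.64), and the polymerase subunit gene *Polr1H*, from 6.62 ± 0.504 to 9.52 ± 0.152 CPM (SD, n = 3 each; 0.52), which overlaps *CG6800* on the other strand.

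Of 24 other pre-ribosome factors 4 were called higher, a share near the 15.3% of all tested genes, and 0 were called lower, beside 11.2%. *Mpp10* and *CG7845* were also listed but had no unique match to a gene of the count table and were left out. A positive difference with an adjusted p under 0.05 was found in 23 of the 24, beside 33.3% of all tested genes. Their median log2 fold change was 0.40. The 2 highest were *Sbds*, which acts in the release of eIF6 from the large subunit, from 24.9 ± 0.822 to 49.5 ± 1.93 CPM (0.99, adjusted p = 4.81e-06), and *Ltv1*, an export factor of the small subunit, from 74.0 ± 3.75 to 132 ± 3.45 CPM (0.84, adjusted p = 9.81e-06). *Sbds* overlaps *Ist1* on the other strand. The 2 lowest of the 4 were *CG3071* at 0.66, which overlaps *CG2924*, and the RNA helicase gene *Dbp73D* at 0.50.

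The 11 genes of the RNA exosome, which trims rRNA precursors and also degrades many other RNAs, had a lower median. By edgeR 0 of the 11 were called in either direction, beside 15.3% and 11.2% of all tested genes, 7 had an unadjusted p under 0.05 and 6 an adjusted p under 0.05, the latter beside 33.3%. All 11 were positive, with a median log2 fold change of 0.21 and a highest value of 0.37 for the helicase gene *Mtr4*. A difference between the exosome and the 37 factors was not tested.

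**Figure D4:**
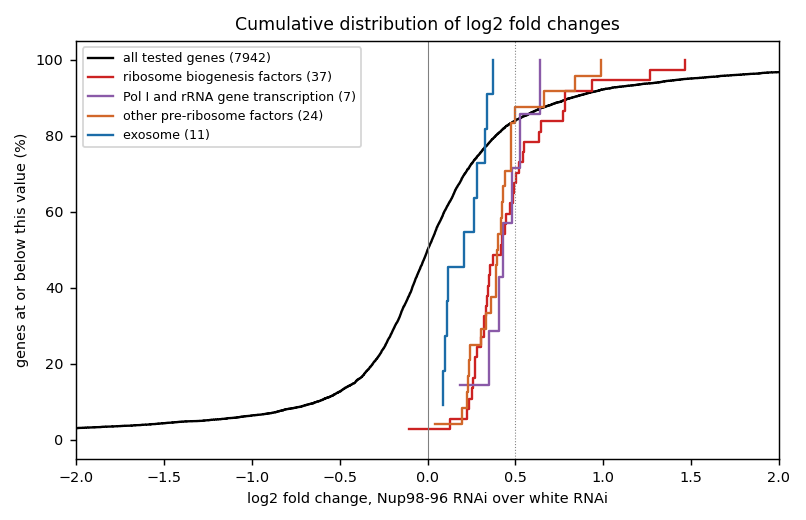
Share of genes (y axis, percent) at or below each log2 fold change of *Nup98-96* RNAi over *white* RNAi (x axis) for all 7942 tested genes, the 37 ribosome biogenesis factors, and genes of RNA polymerase I and its initiation complex, other pre-ribosome factors and the exosome (dotted line, 0.5). The median of the factors is 0.42 and that of all tested genes is 0.0014, and the exosome line, with a median of 0.21, ends at 0.37.

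Myc, which activates many genes of ribosome biogenesis, and its antagonist Mnt moved in opposite directions. *Myc* was at 196, 183 and 183 CPM in *white* RNAi and 305, 267 and 286 CPM in *Nup98-96* RNAi and was called higher (log2 fold change 0.61, interval 0.47 to 0.75, adjusted p = 0.000120). *Mnt*, which competes for the shared partner Max, was at 77.0, 91.2 and 100.2 CPM in *white* RNAi and 49.8, 50.5 and 52.6 CPM in *Nup98-96* RNAi and was called lower (log2 fold change -0.81, interval -1.03 to -0.59, adjusted p = 0.000277). Groups did not overlap in either gene. *Max* itself was at 37.6 ± 1.17 and 39.5 ± 1.47 CPM (SD, n = 3 each) and was not called (log2 fold change 0.07, interval -0.03 to 0.17). *Myc* and *Max* overlap genes on the other strand.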

How the data were processed

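The 3 *Nup98-96* RNAi and 3 *white* RNAi libraries were grouped by their titles. The authors aligned reads to BDGP6 with Rsubread and deposited counts per gene, made with featureCounts without regard to strand, as whole numbers that are not normalized (70342787 to 110330112 per library). A second table of the authors, with limma's log2 fold changes, average expression, p-values and scores, served only to pair 3 identifiers with their symbols (*hoip*, *ap* and *btl*). FastQC, limma and edgeR 3.13.4 are named in the submitters' processing notes.

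Counts were tested with edgeR 4.0.16 (glmQLFit, glmQLFTest; R 4.3.3) after TMM scaling, and p-values were adjusted over all tested genes by the method of Benjamini and Hochberg. The Jaccard similarity filter of HTSFilter, which the study used, was rewritten (thresholds 1 to 200 in 100 steps, loess span 0.3). Its index was highest at 200 normalized counts, the upper end, and left 7942 genes. Genes were called at an adjusted p under 0.05 and a log2 fold change of at least 0.5 in size, as in the study. Symbols, positions and exon lengths came from a BDGP6 annotation, for 17253 of 17559 genes. CPM use effective library sizes, and RPKM are group means per kilobase of merged exons. No 2 replicates were the same library (chi-square of their counts 10.3 to 99.8 per degree of freedom).

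The 37 members, their grouping and the lists of pathway and marker genes were chosen with earlier results of these data known. Library values are given for called members, for the highest and lowest member of each group, and for *Nmd3* and *Pes*, and in each pathway list the 2 highest and 2 lowest called genes are named. Alternatives were RLE, upper-quartile or library-size scaling, filterByExpr or no filter, DESeq2 1.42.0, voom in limma 3.58.1, no minimum fold change, glmTreat against 0.5, a block for the replicate number, and the removal of each library in turn. The same alternatives for the count of members at an adjusted p under 0.05 were added after the data were seen.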

Additional observations from a re-analysis of the deposited data

How the results depend on the processing

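The 12 higher calls among the 37 factors were the same 12 genes with RLE scaling, filterByExpr, DESeq2 and voom. Their number was 15 with upper-quartile scaling, 14 with library size only and 11 with no filter on low counts, where *Ns2* was lost. Of the 7942 tested genes 1293 were called higher with upper-quartile scaling and 1274 with library size only. With RLE scaling, DESeq2 and voom 1210, 1229 and 1242 of them were. With no minimum fold change 35 of the 37 were called higher, and of all genes 2641 were called higher and 2585 lower. With glmTreat, which tests against a log2 fold change of 0.5, 7 of the 37 were called higher (*eIF6*, *RIOK1*, *Non1*, *Nmd3*, *nclb*, *l(3)72Dn* and *Surf6*). By glmTreat 888 of the 7942 tested genes were called higher. Higher calls among all genes rose to 1873 of 10780 tested genes with filterByExpr and to 1950 of 15021 with no filter. Leaving out each library in turn gave 10 to 15 factors called higher and 0 lower. Of the 7833 to 7958 genes tested in these fits, 1154 to 1290 were called higher and 814 to 940 lower. A positive difference at an adjusted p under 0.05 was found in 33 to 36 factors. With all libraries 33.3% of all tested genes met that rule, a share not counted in these fits. Medians were 0.34 to 0.42 for snoRNP, 0.39 to 0.52 for small-subunit and 0.42 to 0.50 for large-subunit factors. The same 36 factors were positive and *Noa36* was negative under every alternative, and no scaling or filter moved the median of all genes by more than 0.096. With the replicate number as a block 12 factors were called higher and 0 lower, and 1213 and 863 of all genes. Deviations of same-numbered libraries from their group means correlated at -0.17, 0.00015 and 0.012, and those of differently numbered libraries at -0.18 to 0.21. With 3 libraries a group these values cannot show whether the replicate numbers pair the libraries. With 3 pools a group, small differences near the threshold (*Ns2*, *Fib*, *CG1542*, *Nop56*, *mbm*) can be called or not by a single library or scaling.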
